A study of Mus musculus with 20 samples.

Results

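Connective-tissue and capsule genes were followed in mouse islets of Langerhans taken from the pancreas and in islets transplanted under the kidney capsule. The list held 45 genes typical of fibroblasts, of pericytes and smooth muscle, and of mesothelium, with collagens left out. Each was read from its probe set with a single gene symbol (the brightest over the 20 arrays where a gene had more than 1), which gave 44 genes of the 19938 on the array. Fbn1 was not analysed here. The measured genes comprised 23 fibroblast genes, 7 broad mesenchymal genes, 7 smooth muscle or pericyte genes, 4 mesothelial genes and 3 others (Anxa1, Car3 and Fmo2).

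RNA was measured on Affymetrix Mouse Gene 1.0 ST arrays in 6 groups of C57bl6/J mice, given here as female grafts P12.5, female grafts NP, male grafts P12.5, male grafts NP (3 arrays each), islets P12.5 and islets NP (4 arrays each). Grafts were freshly isolated islets of a female or a male donor, placed under the left kidney capsule of young adult female hosts made diabetic with streptozotocin, and hosts were mated only after their blood glucose had been restored. P12.5 is day 12.5 of pregnancy, counted from the vaginal plug, and NP is non-pregnant. Islets were collagenase-isolated from the pancreas of female mice, and their arrays were labelled as a reanalysis. The labels call the arrays biological replicates but name no animals, so the spread behind each p-value is that between samples. Whether each array stands for a separate animal is not stated in the labels. Values are log2 intensities, and a difference of 1 is a doubling. A gene was called in limma where it changed by 1.5-fold or more and its p, adjusted over all 35511 probe sets, was below 0.05.

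Fibroblasts make and remodel the extracellular matrix of connective tissue and respond to platelet-derived growth factor through the receptor encoded by Pdgfra. Pericytes and vascular smooth muscle wrap blood vessels, use the related receptor encoded by Pdgfrb, and contract through a shared set of actin-binding proteins. Mesothelium is the flat epithelium that lines the peritoneal cavity and covers abdominal organs.

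Array medians over all probe sets were 5.9 or 6.0, and arrays of a group correlated at 0.971 to 0.989. The 9 beta cell markers averaged 10.53 to 11.18 in grafts and 10.91 to 11.27 in islets. Other cell types differed between the tissues. The mean of 15 kidney markers was 6.01 to 8.45 in grafts and 5.51 to 5.67 in islets. The mean of 11 macrophage markers was 7.55 to 8.84 in grafts and 6.0 to 6.25 in islets, that of 12 endothelial markers 6.38 to 7.83 in grafts and 7.48 to 7.73 in islets, and that of 9 acinar markers 5.11 to 5.43 in grafts and 8.40 to 10.76 in islets. The part of these cells in the levels below was not tested.

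Promoter sequence is shown for 4 genes that mark the contrasts described below: Ogn for fibroblasts, Upk3b for mesothelium, and Acta2 and Cnn1 as 2 contractile genes of which only Acta2 was called. They were chosen after their matches were seen. Each is the 250 bases before the RefSeq gene start on mouse build GRCm38.p6, read 5′ to 3′ on the gene's strand. Capitals mark CATTCC on either strand (the MCAT element, bound by TEAD factors) and the CArG box (the serum response factor element) with 1 letter other than A or T allowed inside it.
Ogn, chr13:49607765-49608014, + strand: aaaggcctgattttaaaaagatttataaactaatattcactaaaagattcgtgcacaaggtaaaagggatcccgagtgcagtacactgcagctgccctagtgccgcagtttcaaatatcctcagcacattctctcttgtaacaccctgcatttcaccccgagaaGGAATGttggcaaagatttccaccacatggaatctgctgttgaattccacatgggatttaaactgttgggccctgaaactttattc
Upk3b, chr5:136038246-136038495, + strand: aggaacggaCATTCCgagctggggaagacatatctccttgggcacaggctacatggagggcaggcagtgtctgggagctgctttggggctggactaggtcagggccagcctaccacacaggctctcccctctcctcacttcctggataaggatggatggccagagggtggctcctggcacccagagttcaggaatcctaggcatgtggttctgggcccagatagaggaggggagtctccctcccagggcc
Acta2, chr19:34255374-34255623, - strand: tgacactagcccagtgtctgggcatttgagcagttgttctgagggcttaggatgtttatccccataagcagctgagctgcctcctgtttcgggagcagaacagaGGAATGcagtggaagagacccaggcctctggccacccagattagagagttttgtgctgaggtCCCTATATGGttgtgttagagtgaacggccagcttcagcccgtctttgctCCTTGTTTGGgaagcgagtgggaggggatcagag
Cnn1, chr9:22099003-22099252, + strand: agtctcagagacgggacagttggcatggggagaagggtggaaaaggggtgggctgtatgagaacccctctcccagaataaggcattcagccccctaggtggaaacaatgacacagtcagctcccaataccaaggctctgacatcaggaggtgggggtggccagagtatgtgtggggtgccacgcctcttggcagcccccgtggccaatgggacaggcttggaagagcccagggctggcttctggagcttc

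A RefSeq promoter was available for 25 of the 44 genes. CATTCC on either strand was in 6 of the 25 (24.0%; Acta2, Anxa1, Lrrn4, Ogn, Timp1 and Upk3b) and in 14.4% of the 27025 genes with a promoter of that length. The CArG box with 1 other letter was in 3 (12%; Acta2, Fbln2 and Mmp14) and in 9.78% of all genes with a promoter. The strict CArG box was in none of the 25 and in 1.62% of all. In the Acta2 promoter the CATTCC match and the pair of CArG matches did not overlap, and the Cnn1 window held neither element. TGACTCA was in none of the 25 (5.16% of all), and CAGCTG in 7 (28.0%, against 14.7% of all). A match describes these letters and is not a measured binding site.

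The first question was how the genes differ between islets in a graft and islets from the pancreas. Most fibroblast, broad mesenchymal and mesothelial genes rose in grafts of either donor sex and in hosts of either state, while the smooth muscle and pericyte genes divided. All 12 graft arrays lay above all 8 islet arrays for 30 of the 44 genes, against 4.69% of the 19938 genes, and for no gene of the list did they all lie below (1.25% of genes). By role these were 17 of 23 fibroblast genes, 5 of 7 broad mesenchymal genes, 2 of 7 smooth muscle or pericyte genes, 3 of 4 mesothelial genes and all 3 others. The 14 genes whose groups overlapped were Fbln2, Postn, Thy1, Fap, Clec3b, Cd248, Timp1, S100a4, Myh11, Cnn1, Des, Cspg4, Pdgfrb and Msln.

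In female P12.5 grafts 31 of the 44 genes rose against P12.5 islets (background 4.03% of genes), and in female NP grafts 32 rose against NP islets (6.50%). In male P12.5 grafts 35 rose (5.79%). In male NP grafts 35 rose (6.88%) and 1, Myh11, fell (2.22%). The median change of the 44 was 2.18 in female P12.5 grafts, 1.95 in female NP, 2.33 in male P12.5 and 1.94 in male NP, beside a median over all genes between -0.08 and -0.07. The 4 comparisons share islet arrays, female and male grafts of each state having the same islets as their control.

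In bulk tissue, more cells of a type and more RNA per cell cannot be told apart. Nor can the tissue of the graft site, streptozotocin treatment and surgery, which all go with the graft label. For male grafts the donor sex differs from that of the islets as well. Only the islet arrays were labelled as a reanalysis, and the labels do not say whether they were run apart from the grafts. A difference in array work, if there was one, also goes with the graft label. In islets Lum, Ogn, Efemp1, Lox, Fap and Car3 averaged at or below 4.9, the highest lower quartile of any array, where a fold change may be understated.

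**Figure D1:**
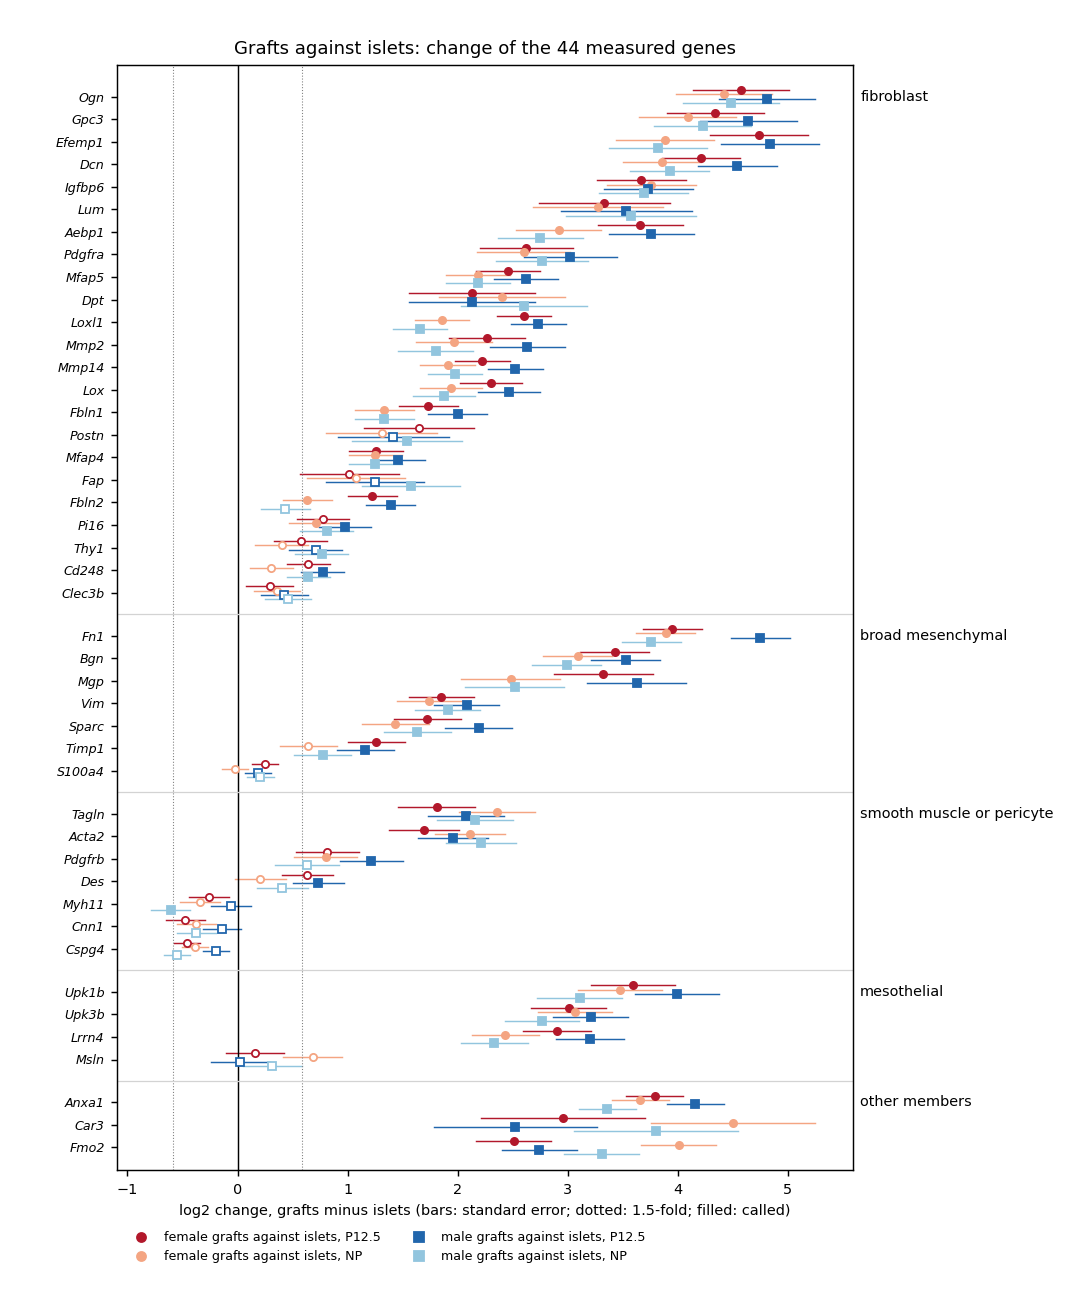
Log2 change (x axis, grafts minus islets of the same pregnancy state) of each of the 44 genes, in blocks by role, with circles for female and squares for male grafts, dark at P12.5 and light in NP hosts, filled where called, bars for the standard error and dotted lines at the 1.5-fold minimum. Ogn, Gpc3, Efemp1 and Dcn lie near or above 4, Upk1b between 3 and 4, Upk3b near 3, and Myh11, Cnn1 and Cspg4 below 0 in all 4 comparisons.

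All 23 fibroblast genes had a positive change in all 4 comparisons. Of them 17 rose in female P12.5 grafts, 18 in female NP, 19 in male P12.5 and 21 in male NP, with median changes of 2.27, 1.94, 2.53 and 1.88 in that order. Ogn encodes osteoglycin, a small leucine-rich proteoglycan. It read 8.2, 8.0 and 9.6 in female P12.5 grafts, 8.6, 9.1 and 8.0 in female NP grafts, 8.2, 8.0 and 10.3 in male P12.5 grafts, and 8.9, 8.5 and 8.5 in male NP grafts. P12.5 islets gave 3.8, 4.2, 4.0 and 4.1, and NP islets 4.1, 4.2, 4.3 and 4.0. Every graft array was thus far above every islet array, and islets were nearly flat. The change was 4.58 in female P12.5 grafts (adjusted p = 5.98e-06), 4.42 in female NP (6.36e-06), 4.81 in male P12.5 (2.63e-06) and 4.48 in male NP (2.95e-06), each ± 0.44 (SE).

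Gpc3 encodes glypican 3, a heparan sulfate proteoglycan on the cell surface. It read 9.1, 9.0 and 10.3 in female P12.5 grafts, 9.7, 9.9 and 8.2 in female NP, 9.2, 9.1 and 11 in male P12.5, and 10, 9.0 and 9.2 in male NP, against 5.1, 5.1, 5.2 and 5.1 in P12.5 islets and 5.3, 5.2, 5.3 and 4.9 in NP islets. Grafts again stood clear of islets, with the third male P12.5 array on top. Changes were 4.34, 4.09, 4.64 and 4.22 (± 0.44 SE each), with adjusted p of 1.12e-05, 1.57e-05, 4.02e-06 and 6.15e-06, in the order female P12.5, female NP, male P12.5, male NP.

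Efemp1, which encodes the elastic-fibre protein fibulin-3, gave 10.1, 9.1 and 9.8 in female P12.5 grafts, 9.4, 9.2 and 7.6 in female NP, 9.3, 9.3 and 10.7 in male P12.5 and 9.7, 7.7 and 8.6 in male NP. P12.5 islets gave 5.0, 5.0, 4.8 and 4.9, and NP islets 4.8, 4.8, 4.8 and 5.0. The graft spread was wide and the islet spread narrow, without overlap. The change was 4.74 in female P12.5 (adjusted p = 5.63e-06), 3.88 in female NP (2.71e-05), 4.84 in male P12.5 (3.1e-06) and 3.82 in male NP (1.9e-05), each ± 0.44 (SE).

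Dcn encodes decorin, a proteoglycan that binds collagen fibrils. Grafts read 10.7, 10.8 and 11.3 (female P12.5), 11.2, 11.4 and 10.2 (female NP), 11.1, 10.6 and 12.1 (male P12.5) and 11.3, 10.8 and 10.9 (male NP). Islets read 7.1, 7.3, 6.5 and 6.0 at P12.5 and 6.9, 7.3, 7.4 and 6.7 in NP mice. Grafts lay clear of islets, and islet arrays differed among themselves nearly as much as graft arrays did (SD within groups 0.541 in grafts and 0.479 in islets). The fold was 18.5 in female P12.5 grafts, 14.5 in female NP, 23.3 in male P12.5 and 15.2 in male NP, with log2 changes of 4.21, 3.86, 4.54 and 3.92 (± 0.36 SE) and adjusted p of 1.75e-06, 3.11e-06, 4.29e-07 and 1.39e-06.

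Pdgfra, the receptor that defines fibroblasts in many tissues, read 7.1, 7.6 and 9.0 in female P12.5 grafts, 8.0, 8.8 and 7.5 in female NP, 7.9, 7.6 and 9.4 in male P12.5 and 8.8, 7.9 and 8.1 in male NP. P12.5 islets gave 5.3, 5.1, 5.2 and 5.5 and NP islets 5.5, 5.6, 5.5 and 5.4. No graft array came down to an islet level. It rose by 2.62, 2.60, 3.02 and 2.77 (± 0.42 SE), with adjusted p of 0.000971, 0.000377, 0.000185 and 0.000191, in the same order.

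Among the other fibroblast genes, Lum (lumican) ranged from 6.6 to 9.6 in grafts with a median of 7.85, against 4.3 to 4.8 in islets. Aebp1, a secreted protein of fibrillar matrix, ranged from 8.2 to 10.8 in grafts and from 6.1 to 6.3 in islets. Igfbp6, which binds insulin-like growth factors, ranged from 8.5 to 10.7 in grafts and from 5.5 to 6.0 in islets. These genes and the matrix enzymes Lox, Loxl1, Mmp2 and Mmp14 rose in all 4 comparisons, as did Fbln1, Mfap4, Mfap5 and Dpt.

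Clec3b, Postn, Thy1, Fap, Cd248, Pi16 and Fbln2 missed the call in at least 1 comparison. Clec3b was called in no comparison (5.2 to 6.3 in grafts, 5.0 to 5.4 in islets). Postn, Thy1 and Fap were called only in male NP grafts, and Cd248 only in the male grafts of both states. Thy1 is also made by T cells, and the mean of 7 lymphocyte markers was 7.07, 7.04 and 6.34 on the male NP graft arrays, against 5.54 to 5.94 on the other grafts and 5.09 to 5.23 in islets. All 7 of them rose in male NP grafts against islets, and 2, 3 and 2 in female P12.5, female NP and male P12.5 grafts. Their part in the Thy1 call was not tested. Pi16 was called in all but female P12.5 grafts, and Fbln2 in all but male NP grafts. A difference between the comparisons was not shown by these calls: the tests of donor sex are given below.

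Of the broad mesenchymal genes, 6 of 7 rose in female P12.5 grafts, 5 in female NP, 6 in male P12.5 and 6 in male NP. Fn1 encodes fibronectin. It read 8.8, 9.1 and 10 in female P12.5 grafts, 9.5, 9.3 and 8.7 in female NP, 10.1, 9.6 and 10.6 in male P12.5 and 9.5, 8.6 and 9.0 in male NP, against 5.4, 5.3, 5.3 and 5.4 in P12.5 islets and 5.2, 5.2, 5.4 and 5.3 in NP islets. The islet values hardly varied and lay far below all grafts. Its change was 3.95, 3.89, 4.75 and 3.76 (± 0.27 SE), with adjusted p of 9.45e-08, 1.02e-07, 4.32e-09 and 9.71e-08, again in the order female P12.5, female NP, male P12.5, male NP.

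Bgn encodes biglycan, the closest relative of decorin. It read 9.9, 10.2 and 11.1 in female P12.5 grafts, 10.9, 10.4 and 9.5 in female NP, 10.4, 10.2 and 10.9 in male P12.5 and 10.5, 9.8 and 10.2 in male NP, against 7.3, 7.2, 6.8 and 6.6 in P12.5 islets and 7.1, 7.4, 7.4 and 6.8 in NP islets. It rose by 3.42, 3.09, 3.52 and 2.99 (± 0.31 SE; adjusted p = 4.78e-06, 8.54e-06, 2.14e-06 and 6.49e-06). Mgp encodes matrix Gla protein, which inhibits calcification. It read 9.2, 9.8 and 11 in female P12.5 grafts, 10.2, 9.9 and 8.5 in female NP, 10.1, 9.6 and 11.2 in male P12.5 and 10, 9.2 and 9.5 in male NP, against 7.0, 6.9, 6.8 and 6.0 in P12.5 islets and 7.0, 7.3, 7.3 and 6.6 in NP islets. It rose by 3.32, 2.48, 3.62 and 2.52 (± 0.45 SE; adjusted p = 0.000183, 0.000809, 5.69e-05 and 0.000712). For both genes the lowest graft array was above the highest islet array.

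Sparc, a matrix glycoprotein, and Vim, the intermediate filament of mesenchymal cells, rose in all 4 comparisons. Sparc ranged from 9.9 to 12.1 in grafts and from 8.8 to 9.4 in islets, and Vim from 8.9 to 10.6 in grafts and from 7.3 to 8.1 in islets. Timp1, an inhibitor of matrix metalloproteinases, was called in all but female NP grafts. S100a4, a calcium-binding protein, was called in none (5.2 to 5.8 in grafts, 5.2 to 5.6 in islets).

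The smooth muscle and pericyte genes did not move as a block. Of 7 genes, 2 rose in female P12.5 grafts, 3 in female NP, 4 in male P12.5 and 2 in male NP, where 1 fell. Their median change was 0.63, 0.21, 0.73 and 0.41 in that order, against 2.95, 2.75, 3.20 and 2.55 for the mesothelial genes. Acta2 and Tagln, which encode smooth muscle actin and transgelin and are also made by activated fibroblasts, rose in all 4 comparisons.

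Acta2 read 8.2, 8.8 and 9.6 in female P12.5 grafts, 9.1, 9.9 and 8.7 in female NP, 9.1, 8.6 and 9.7 in male P12.5 and 9.5, 8.9 and 9.6 in male NP. Islets read 7.5, 7.3, 7.0 and 6.9 at P12.5 and 7.1, 7.2, 7.3 and 6.9 in NP mice. The lowest graft, a female P12.5 array, was still above the highest islet array. Changes were 1.69, 2.11, 1.96 and 2.21 (± 0.32 SE), with adjusted p of 0.00373, 0.000227, 0.000713 and 0.00012.

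Tagln read 7.2, 7.7 and 8.6 in female P12.5 grafts, 8.1, 9.1 and 7.8 in female NP, 8.1, 7.3 and 8.9 in male P12.5 and 8.3, 7.7 and 8.4 in male NP, against 6.0, 6.1, 6.1 and 5.9 in P12.5 islets and 5.9, 6.0, 6.0 and 6.0 in NP islets. Grafts and islets were apart. Its changes were 1.81, 2.36, 2.08 and 2.16 (± 0.35 SE; adjusted p = 0.00439, 0.000187, 0.0009 and 0.000313).

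Myh11, the smooth muscle myosin heavy chain of fully contractile cells, had differences below 0 in all 4 comparisons. It read 5.8, 6.3 and 6.7 in female P12.5 grafts, 6.4, 6.4 and 5.9 in female NP, 6.4, 6.2 and 6.8 in male P12.5 and 6.0, 6.0 and 5.9 in male NP. P12.5 islets gave 6.6, 6.7, 6.4 and 6.4, and NP islets 6.4, 6.6, 6.7 and 6.6. Male NP grafts lay below all NP islets, and the other 3 graft groups overlapped their islets. The change was -0.61 ± 0.18 (SE) in male NP grafts (adjusted p = 0.0203), and -0.26, -0.34 and -0.06 in female P12.5, female NP and male P12.5 grafts (adjusted p = 0.408, 0.165 and 0.863). The fall in male NP grafts fell short of the fold minimum with array medians subtracted (-0.53) or without the third male NP array (-0.57, adjusted p = 0.0677) or the third NP islet array (-0.57, adjusted p = 0.050).

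Cspg4, the NG2 proteoglycan of pericytes, read 5.4, 5.6 and 6.0 in female P12.5 grafts, 5.7, 5.9 and 5.7 in female NP, 6.0, 5.9 and 5.9 in male P12.5 and 5.7, 5.7 and 5.4 in male NP. Islets read 6.1, 6.2, 6.0 and 6.2 at P12.5 and 6.1, 6.2, 6.1 and 6.2 in NP mice. Every graft array was at or below the lowest islet array. The differences were -0.46, -0.38, -0.19 and -0.55 (± 0.12 SE), with adjusted p of 0.0265, 0.0228, 0.293 and 0.00277, and none reached the fold minimum. Without the third female P12.5 array the first became -0.62 (adjusted p = 0.00341), past both thresholds, and without the first or the second male NP array the last became -0.60, likewise called.

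Pdgfrb, the receptor of pericytes and also of many fibroblasts, read 7.0, 7.9 and 8.7 in female P12.5 grafts, 8.0, 8.1 and 7.3 in female NP, 8.5, 7.9 and 8.4 in male P12.5 and 8.0, 7.2 and 7.7 in male NP. Islets read 7.1, 7.1, 7.1 and 6.9 at P12.5 and 7.1, 7.0, 7.0 and 6.9 in NP mice. The first female P12.5 array fell inside the islet range and all other grafts lay above it. It rose by 1.22 ± 0.29 (SE) in male P12.5 grafts (adjusted p = 0.00967) and by 0.80 in female NP grafts (adjusted p = 0.0467), and differed by 0.82 in female P12.5 and 0.63 in male NP grafts (adjusted p = 0.0971 and 0.116). The female NP call was lost without 6 of the 7 arrays of that comparison (0.65 to 0.83 with them left out in turn) and with quantile normalization repeated (0.79, adjusted p = 0.0567), and the male P12.5 call without the third male P12.5 array (1.15, adjusted p = 0.0573). In the other direction, Pdgfrb was called in female P12.5 grafts without their first array (1.25, adjusted p = 0.00639). It was also called in male NP grafts when only the compared groups were fitted (0.63, adjusted p = 0.0334).

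Des, the intermediate filament of muscle and pericytes, was called only in male P12.5 grafts, at 0.73 (adjusted p = 0.0421). Cnn1, the actin-binding protein calponin, was called nowhere, with differences of -0.48, -0.38, -0.14 and -0.38, and its 12 graft arrays read 4.5 to 5.2 against 4.6 to 5.4 in islets. Cnn1 was also the 1 gene of the list that averaged at or below 4.9 in grafts, where a fold change may be understated. The Acta2 and Cnn1 promoters printed above thus belong to a called gene and to an uncalled gene of low level. A link between their sequences and these calls was not tested.

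Of the 4 mesothelial genes, 3 rose in every comparison. Upk1b encodes a uroplakin, a membrane protein of bladder lining that mesothelium also makes. Female P12.5 grafts gave 9.4, 8.4 and 8.5, female NP 9.6, 8.7 and 7.5, male P12.5 9.0, 8.7 and 9.8, and male NP 8.7, 7.7 and 8.3. P12.5 islets gave 5.4, 5.1, 4.9 and 5.3, and NP islets 4.9, 4.9, 5.3 and 5.4. Every graft array was above every islet array. Upk1b rose by 3.59, 3.48, 3.99 and 3.11 (± 0.38 SE; adjusted p = 1.95e-05, 2.01e-05, 4.3e-06 and 3.15e-05).

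Upk3b encodes a uroplakin widely used as a mesothelial marker. It gave 9.4, 8.6 and 8.8 in female P12.5 grafts, 9.8, 9.2 and 7.9 in female NP, 9.1, 8.7 and 9.6 in male P12.5 and 9.2, 8.1 and 8.7 in male NP, against 5.9, 5.8, 6.0 and 6.0 in P12.5 islets and 5.8, 5.9, 5.8 and 6.1 in NP islets. The third female NP array was lowest for this gene, as it was for Upk1b. Upk3b rose by 3.01, 3.07, 3.21 and 2.77 (± 0.34 SE; adjusted p = 3.09e-05, 1.96e-05, 1.15e-05 and 2.84e-05).

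Lrrn4, a leucine-rich repeat membrane protein of mesothelium, gave 8.6, 7.9 and 8.1 in female P12.5 grafts, 8.1, 7.9 and 6.9 in female NP, 8.4, 7.9 and 9.2 in male P12.5 and 8.1, 6.9 and 7.6 in male NP, against 5.4, 5.2, 5.4 and 5.2 in P12.5 islets and 5.2, 5.2, 5.1 and 5.3 in NP islets. It rose by 2.90, 2.43, 3.20 and 2.33 (± 0.31 SE; adjusted p = 1.79e-05, 5.79e-05, 4.27e-06 and 5.46e-05). Again no graft reached down to the islets.

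Msln encodes mesothelin, a surface protein of mesothelium, and was the exception among the 4. It read 9.5, 8.9 and 9.0 in female P12.5 grafts, 9.5, 9.2 and 8.4 in female NP, 9.1, 8.6 and 9.3 in male P12.5 and 9.0, 8.4 and 8.6 in male NP. P12.5 islets gave 8.8, 9.2, 8.8 and 9.1, and NP islets 8.4, 8.7, 8.6 and 7.7. The groups overlapped in both states. The difference was 0.16 in female P12.5 grafts (95% confidence interval -0.40 to 0.72), 0.68 in female NP (0.12 to 1.24; adjusted p = 0.0634), 0.03 in male P12.5 (-0.54 to 0.59) and 0.32 in male NP (-0.24 to 0.88). The female NP difference passed the threshold without the third female NP array (1.00, adjusted p = 0.0142), without the second NP islet array (0.80) or with array medians subtracted (0.72).

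The 3 genes outside these classes rose in all 4 comparisons. Anxa1 encodes annexin A1, a phospholipid-binding protein of many stromal and myeloid cells. It read 9.0, 8.8 and 9.4 in female P12.5 grafts, 9.2, 9.0 and 8.3 in female NP, 9.2, 9.0 and 10.1 in male P12.5 and 8.6, 8.2 and 8.8 in male NP, against 5.4, 5.5, 4.9 and 5.3 in P12.5 islets and 5.0, 5.4, 5.4 and 4.9 in NP islets. It rose by 3.79, 3.66, 4.16 and 3.36 (± 0.26 SE; adjusted p = 9.45e-08, 1.28e-07, 1.76e-08 and 2.23e-07), with no overlap.

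Car3 encodes carbonic anhydrase 3, abundant in adipocytes and skeletal muscle. It read 8.9, 6.9 and 7.4 in female P12.5 grafts, 8.7, 10 and 9.5 in female NP, 5.8, 5.9 and 10.2 in male P12.5 and 9.3, 8.7 and 8.1 in male NP. P12.5 islets read 4.9, 4.6, 4.7 and 4.9, and NP islets 4.7, 4.9, 5.0 and 5.0. It had the widest spread of the 44 genes within graft groups (SD 1.43), and in male P12.5 grafts a single array was high. It rose by 2.96, 4.50, 2.52 and 3.80 (± 0.74 SE; adjusted p = 0.0234, 0.000441, 0.0306 and 0.00138). The male P12.5 call was lost without the third male P12.5 array (1.08, adjusted p = 0.160) and when only the compared groups were fitted (adjusted p = 0.130). The female P12.5 call was lost without the first (2.38, adjusted p = 0.101) or the third female P12.5 array (3.12, adjusted p = 0.0659), and also without the second, the third or the fourth P12.5 islet array. The male call was likewise lost without any of the 4 P12.5 islet arrays, and adjusted p was 0.0513 to 0.0641 in these fits.

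Fmo2 encodes a flavin-containing monooxygenase, an enzyme of drug metabolism abundant in lung and stromal cells. It read 9.5, 9.0 and 9.2 in female P12.5 grafts, 10.4, 10.1 and 9.0 in female NP, 9.1, 8.8 and 10.5 in male P12.5 and 9.3, 8.6 and 9.5 in male NP. P12.5 islets gave 6.6, 6.8, 6.8 and 6.7, and NP islets 5.8, 5.9, 5.8 and 5.8. Grafts were above both sets of islets, which were themselves apart. Against the islets of the same state it rose by 2.51, 4.01, 2.74 and 3.31 (± 0.34 SE; adjusted p = 0.000183, 1.17e-06, 5.63e-05 and 5.15e-06).

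**Figure D2:**
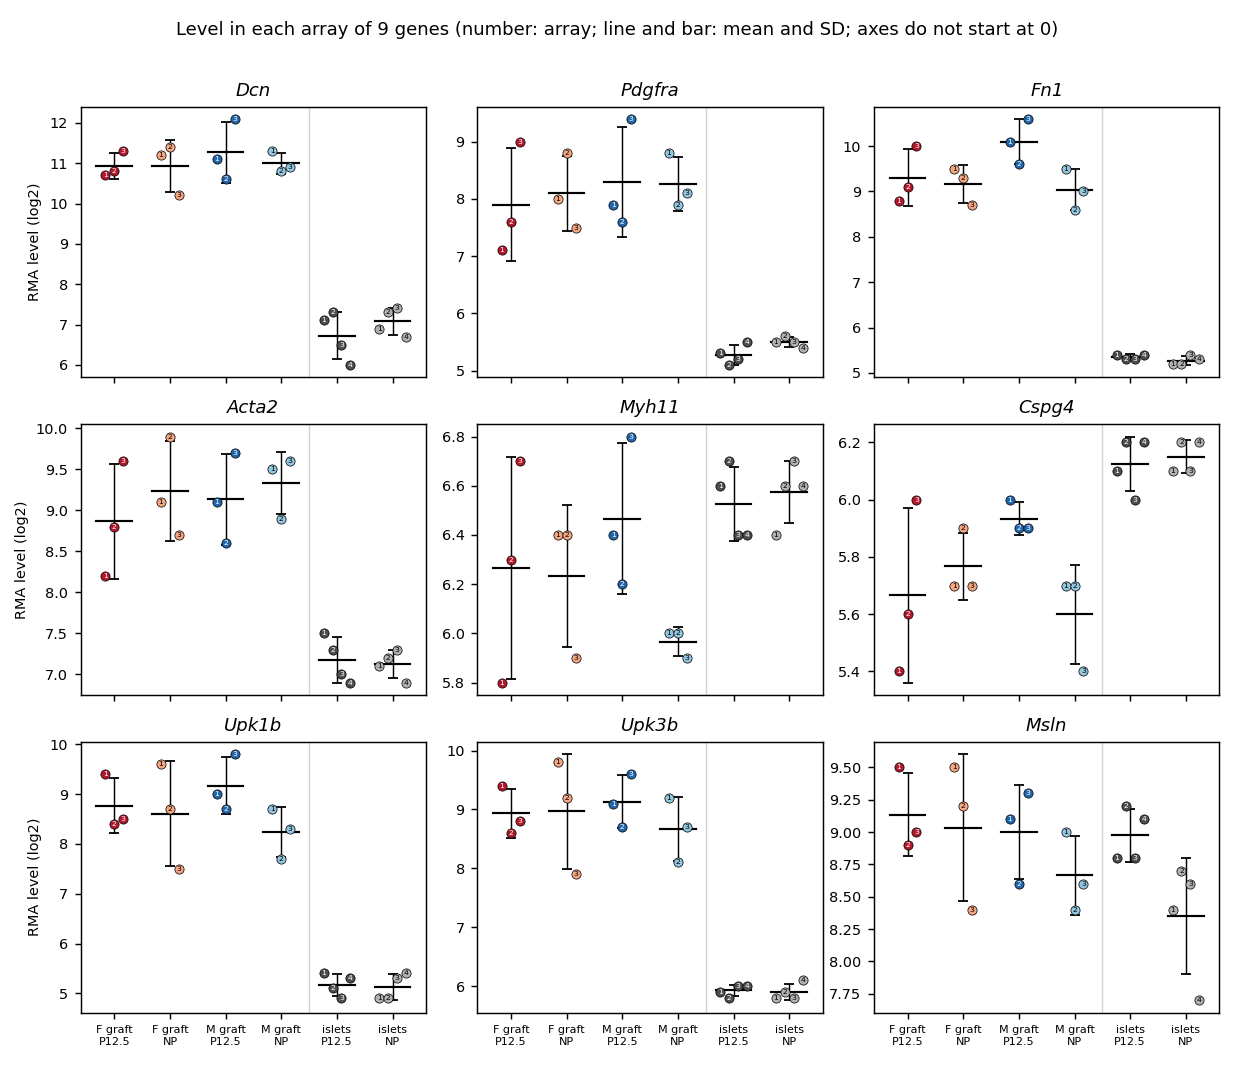
Log2 level of Dcn, Pdgfra, Fn1, Acta2, Myh11, Cspg4, Upk1b, Upk3b and Msln on each of the 20 arrays, numbered within the 6 groups on the x axis (F, female; M, male), with the group mean as a line and the SD as a bar, on y axes that do not start at 0. Dcn, Pdgfra, Fn1, Acta2, Upk1b and Upk3b separate all 12 graft arrays from all 8 islet arrays, whereas Myh11 and Msln overlap and Cspg4 is slightly lower in grafts.

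Other genes of the same cell types gave a like picture. Their lists were chosen with earlier results of these data known and read on the same arrays, so they are not independent support. Of 26 other fibroblast and matrix genes, 20 rose in female P12.5 grafts, 19 in female NP, 20 in male P12.5 and 18 in male NP, and none fell. Their median change was 1.58, 1.39, 1.90 and 1.36. Of all genes, 4.03%, 6.50%, 5.79% and 6.88% rose in these comparisons, in the same order. Prelp and Fmod, which like Dcn and Lum encode leucine-rich proteoglycans, rose by 3.42 and 3.54 in female P12.5 grafts. Of 12 other mesothelial genes, 11 rose in all 4 comparisons, and only Krt7 was not called. Krt7 was lower by 0.45 in both NP comparisons, short of the fold minimum (-0.45, adjusted p = 0.0154 in female and 0.0163 in male grafts). Gpm6a rose by 2.93, 3.09, 3.33 and 2.79, and Aldh1a2, which makes retinoic acid, by 2.81, 2.40, 3.11 and 2.57.

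Of 15 other smooth muscle and pericyte genes, 3 rose and 1 fell in female P12.5 grafts, 4 rose and 2 fell in female NP, 5 rose in male P12.5, and 4 rose and 2 fell in male NP. Their median change was 0.06, -0.18, 0.16 and -0.07. As a background for the rises, 4.03%, 6.50%, 5.79% and 6.88% of all genes rose, in the same order. The contractile genes Myl9, Mylk and Cald1, which fibroblasts share, rose in all 4, Myl9 by 1.16, 1.31, 1.36 and 1.48. Mcam, a surface protein of pericytes and endothelium, fell in 3 of the 4 (-0.80, -0.94 and -0.98, and -0.60 without a call in male P12.5). Abcc9, a potassium channel subunit of pericytes, fell in both NP comparisons (-0.68 in female and -0.88 in male grafts). Angpt1, another gene of that list, rose in both NP comparisons (0.84 in female and 1.11 in male grafts). The pericyte genes Rgs5 and Notch3 were not called in any of the 4. In the same comparisons 3, 8, 2 and 8 of 12 endothelial markers fell and none rose. Their part in the pericyte values was not tested. As a background for these falls, 2.22% of all genes fell in male NP grafts. That share is not given here for the other comparisons.

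Among the ligands that act on these cells, Pdgfc, a ligand of the receptor encoded by Pdgfra, rose by 2.21, 2.16, 2.31 and 2.16, while Pdgfa and Pdgfb were not called. Pdgfd, a ligand of the receptor encoded by Pdgfrb, rose by 1.06 in female NP, 1.12 in male P12.5 and 0.93 in male NP grafts, and differed by 1.02 in female P12.5 grafts without a call (adjusted p = 0.0675). Of 8 transforming growth factor beta ligands and receptors, 3 rose in each P12.5 comparison and 2 in each NP comparison. Between 4.03% and 6.88% of all genes rose in the 4 comparisons. Tgfb3 rose in all 4 by 2.32, 2.14, 2.98 and 1.91, as did Tgfbr2.

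The second question was whether pregnancy moved these genes. In islets from the pancreas 1 of the 44 genes was called at P12.5, Fmo2, against 0.998% of all genes. Its P12.5 levels (6.6, 6.8, 6.8 and 6.7) were all above its NP levels (5.8, 5.9, 5.8 and 5.8). The rise was 0.90 ± 0.07 (SE), a fold of 1.87 (adjusted p = 0.000455), and it was 0.87 to 0.94 with any islet array left out. The median change of the 44 genes in islets was -0.04, beside 0 over all genes, and for 42 of them the whole 95% confidence interval lay within a doubling either way.

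Mesothelin had the next highest difference among the members in islets, 0.62 ± 0.21 (SE), and was not called (adjusted p = 0.251). In the fit of grafts the same gene differed by 0.10 in female and by 0.33 in male grafts. Unadjusted p was under 0.05 for 5 of the 44 genes in islets, Mfap4, Pdgfra, Timp1, Msln and Fmo2, of which 2 were higher at P12.5. The share of all genes at that unadjusted threshold is not given, here or for the later comparisons. Counts at that threshold are therefore without a background.

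In female grafts none of the 44 genes was called between P12.5 and NP hosts (1.17% of all genes were), none had an unadjusted p under 0.05, and the lowest adjusted p was 0.283. In male grafts none was called (0.757% of all genes were), and the lowest adjusted p was 0.124. Unadjusted p was under 0.05 for 7, all higher at P12.5. The share of calls is no background for that count, and the genes varied together between grafts, as given below. Those 7 were Fbln2, Loxl1, Fn1, Myh11, Cspg4, Lrrn4 and Anxa1. Fn1 differed by 1.07 ± 0.36 (SE; adjusted p = 0.148) and Lrrn4 by 0.97 ± 0.41 (SE; adjusted p = 0.221). The median difference was 0.12 in female and 0.33 in male grafts, beside 0.03 and 0 over all genes. The median standard error was 0.38 in grafts of 1 sex and 0.10 in islets, and the confidence interval lay wholly within a doubling either way for only 16 genes in female and 12 in male grafts.

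Over grafts of both donor sexes 1 gene was called, against 1.88% of all genes. It was Fbln2, which encodes fibulin-2 of basement membranes and elastic fibres. Its levels were 7.8, 7.6 and 8.0 in female P12.5 grafts against 7.7, 7.4 and 6.6 in female NP grafts, and 7.7, 7.7 and 8.5 in male P12.5 grafts against 7.3, 7.0 and 6.8 in male NP grafts. The male groups were apart and the female groups overlapped. The difference was 0.75 ± 0.20 (SE), a fold of 1.68 (adjusted p = 0.0344). The call was lost without any of 8 of the 12 graft arrays, namely all 3 female P12.5 arrays, the second and the third female NP arrays, the third male P12.5 array and the second and the third male NP arrays (0.59 to 0.80, adjusted p 0.0501 to 0.0810). Islets read 6.7, 6.6, 6.4 and 6.6 at P12.5 and 6.6, 6.4, 6.6 and 6.8 in NP mice.

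Unadjusted p was under 0.05 for 8 genes over both donor sexes, 7 of them higher at P12.5 (Efemp1, Aebp1, Fbln2, Loxl1, Fn1, Lrrn4 and Anxa1). Car3 was the lower one, with a difference of -1.53 ± 0.70 (SE; adjusted p = 0.161), -1.67 in female and -1.4 in male grafts. Its level of 10.2 on the third male P12.5 array was above every NP graft of either donor sex. The mean of 6 adipocyte markers on that array was 7.28, the highest of the 12 grafts, whereas it was 5.87 and 5.98 on the other male P12.5 arrays. That list averaged 5.82 to 6.12 in islets. Its part in the Car3 values was not tested.

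**Figure D3:**
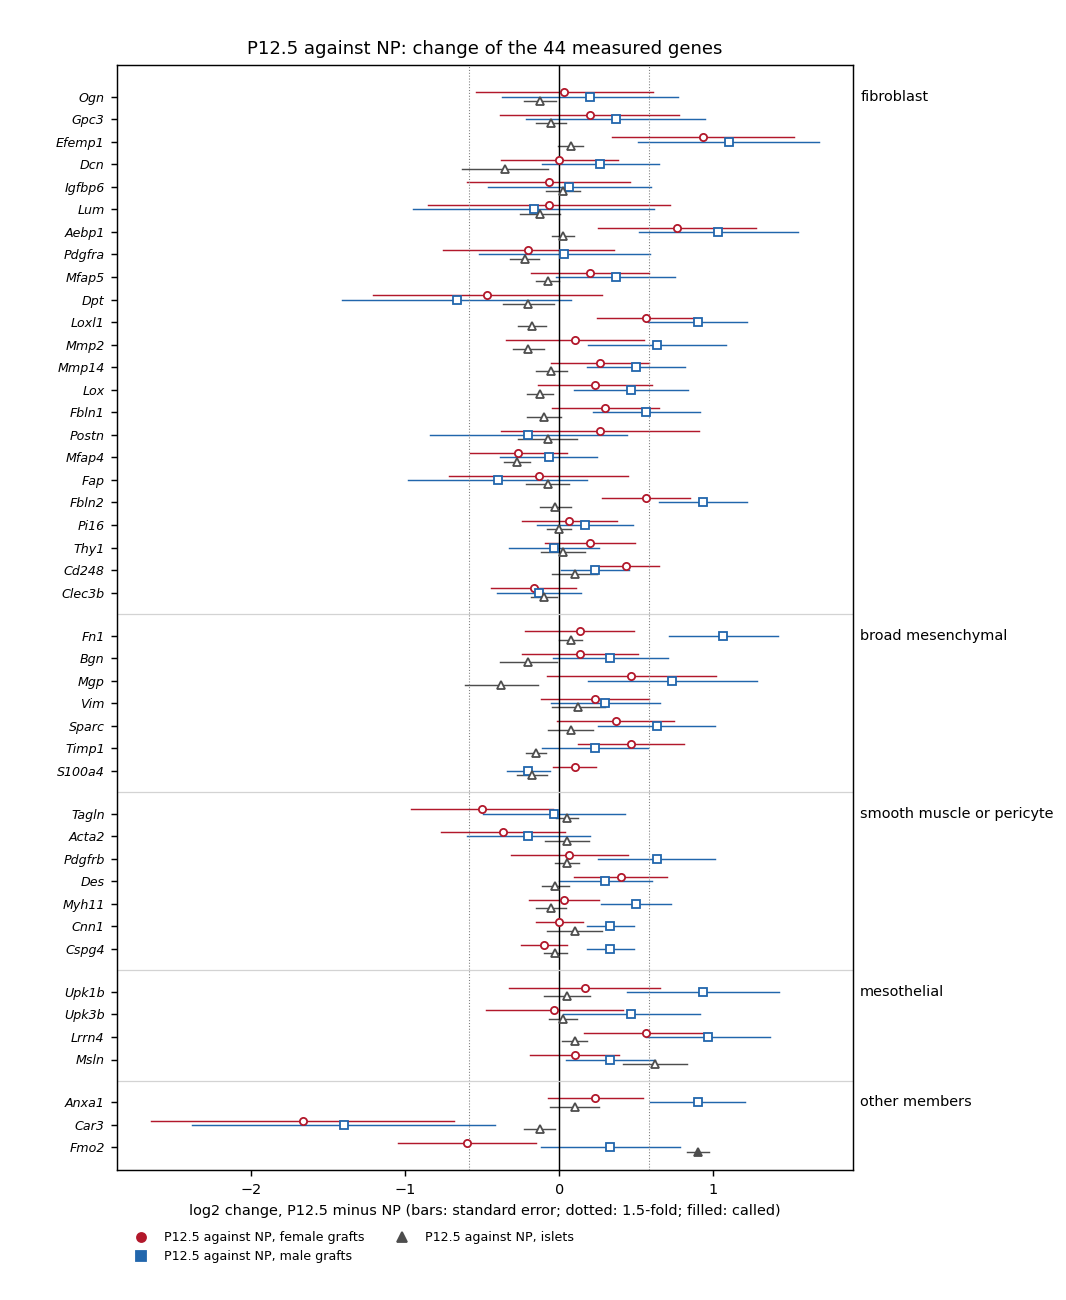
Log2 difference of each of the 44 genes between P12.5 and NP (x axis, positive where P12.5 is higher) in female grafts (circles), male grafts (squares) and islets (triangles), in blocks by role, filled where called, with bars for the standard error and dotted lines at the 1.5-fold minimum. Islet points sit close to 0 apart from Fmo2 at 0.90, the only filled symbol, and Msln at 0.62, and graft points scatter more widely, Car3 lowest at -1.67.

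The difference of the pregnancy effect between female grafts and islets was called for none of the 44 genes (0.0100% of all genes), and 2 had an unadjusted p under 0.05, Loxl1 and Fmo2. For Fmo2 it was -1.5 ± 0.48 (SE; adjusted p = 0.200), where Fmo2 differed by -0.60 between female P12.5 and NP grafts (adjusted p = 0.481) and by 0.33 in male grafts (adjusted p = 0.721). The islet rise of Fmo2 was thus not shown to be absent from grafts.

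The third question was the sex of the islet donor, since all hosts were female. None of the 44 genes was called between male and female grafts in NP hosts (0.0201% of all genes were) or at P12.5 (0.0150%), and 0 and 1 gene had an unadjusted p under 0.05, the 1 being Fn1 (0.80, adjusted p = 0.977). Male minus female differences ran from -0.70 to 0.50 in NP hosts with a median of 0, and from -0.43 to 0.80 at P12.5 with a median of 0.20. Of the 44 genes, 24 in NP hosts and 16 at P12.5 had a confidence interval wholly inside a doubling either way, so that a moderate difference was not detectable with 3 arrays a group for the rest. The interaction of donor sex and pregnancy was called for none, as for no gene on the array, and none had an unadjusted p under 0.05.

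The last question was how the genes varied from graft to graft. The within-group SD had a median of 0.540 over the 44 genes in grafts and 0.144 in islets. Over all genes that median was 0.166 in grafts and 0.121 in islets. Of the 44 genes 43 were wider in grafts, and the matching share of all genes is not given here. Most of the 44 also read lower in islets, and the part of level in their spread was not tested. After Car3, the widest were the fibroblast genes Lum (1.13) and Dpt (1.08).

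The genes varied between grafts as groups. The third male P12.5 array was the highest of the 12 grafts for 31 of the 44 genes, 21 of 23 fibroblast genes among them, with ties counted for each array, and was above the graft median for all 44. The third female P12.5 array was highest for 7 and above the graft median for 39. The third female NP array was lowest, ties included, for 25, all 4 mesothelial genes among them. Median deviations from the graft mean over the 44 genes were 0.92, 0.51 and -0.66 on these arrays, while no graft array deviated by more than 0.033 over all genes.

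Fibroblast and mesothelial genes did not order the grafts in the same way. The first female P12.5 array was 0.39 below the graft mean for the fibroblast genes and 0.56 below it for the smooth muscle and pericyte genes, and lowest of all grafts, ties included, for 6 of those 7. On the same array the mesothelial genes were 0.59 above the graft mean, and all 4 were higher there than on the other arrays of its group. The other mesothelial genes were also above it there, by 0.37, and the other fibroblast genes below, by 0.49. The third female P12.5 array had 0.67 for fibroblast genes, -0.04 for mesothelial genes and 0.01 for the other mesothelial genes.

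Other cell markers moved with some of these arrays. On the third male P12.5 array the endothelial, macrophage and adipocyte lists were 0.90, 0.57 and 0.77 above their graft means, and the kidney list 0.41 above. On the third female NP array the endothelial and macrophage lists were 0.52 and 0.43 below theirs and the kidney list 0.32 above. On the first female P12.5 array the endothelial and macrophage lists were 0.56 and 0.58 below. On the third female P12.5 array they were 0.50 and 0.70 above. The mean of the 9 measured beta cell markers was lowest on the third male P12.5 array (10.53), next lowest on the third female P12.5 array (10.84) and highest on the first female P12.5 array (11.18). The part of these cells in the order of the grafts was not tested. Group means over 3 grafts therefore rest on unlike arrays: the fibroblast gene mean, for example, was 7.52, 7.70 and 8.58 on the 3 female P12.5 arrays.

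**Figure D4:**
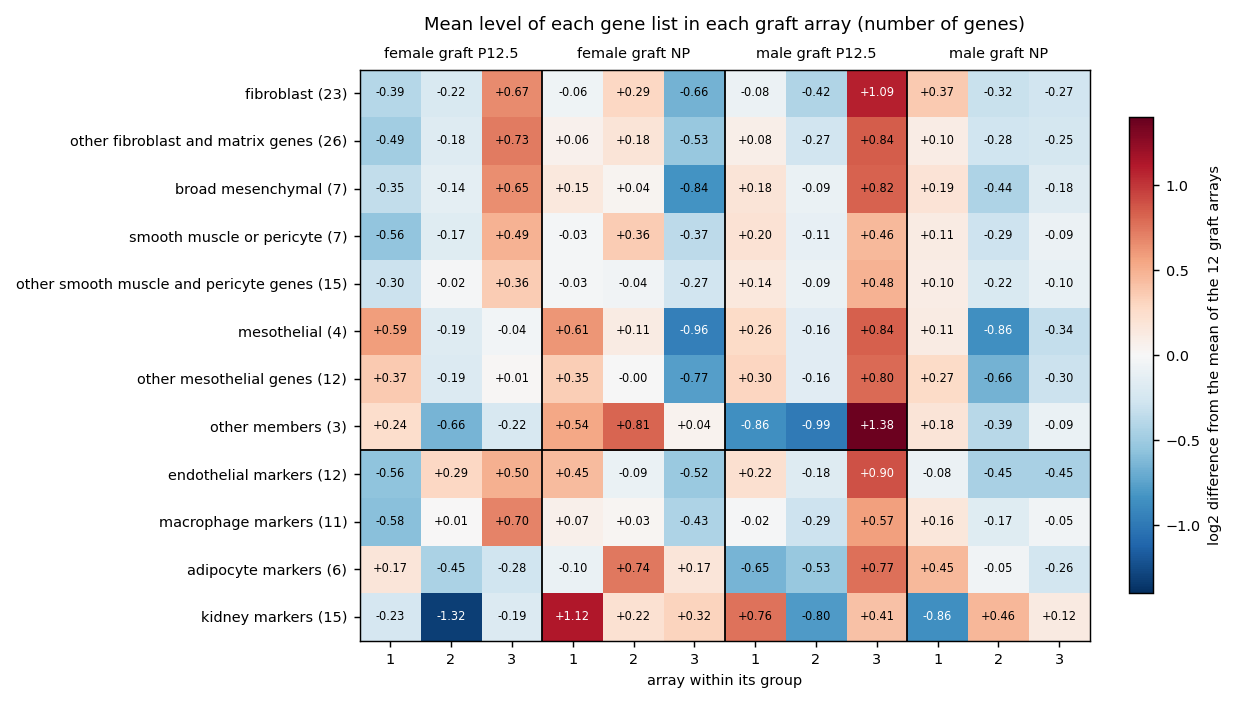
Heat map of the mean log2 level of each gene list (y axis, number of genes in brackets) on each graft array (x axis, by group), as the difference from its mean over the 12 grafts, red above and blue below, with marker lists of other cells under the black line. The third male P12.5 array is highest for the fibroblast genes (1.09), and the first female P12.5 array combines low fibroblast values (-0.39) with high mesothelial ones (0.59).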

How the data were processed

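Total RNA was hybridised to Affymetrix MoGene 1.0 ST arrays, and the authors preprocessed the scans by robust multichip analysis in the aroma.affymetrix R package. The deposited values are log2 intensities rounded to 1 decimal, for 35511 probe sets on 20 arrays, and were used without further scaling. An array platform annotation gave 21789 probe sets a single gene symbol, 1621 several and 12101 none, and 19938 genes were read. All measured members had 1 probe set each. Array number, 3 or 4 a group, limits the precision. The members and lists were chosen with earlier results of these data known.

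Linear models were fitted with limma 3.58.1 under R 4.3.3 (two-sided eBayes statistics, with Benjamini-Hochberg adjustment over all probe sets), after the code had been tested on simulated data. Islet contrasts used the 8 islet arrays and graft contrasts the 12 graft arrays. Grafts against islets, and the interaction of transplantation and pregnancy, used all 20 arrays with a shared spread, although grafts varied more than islets. Values in every array are given for up to 3 called genes of each role and comparison, those with the largest change, and for Dcn, Pdgfra, Acta2, Myh11, Pdgfrb, Cspg4, Upk1b, Upk3b and Msln. Alternatives were array scaling, a mean-variance trend, a filter on dim probe sets, gene means, no fold minimum, fits of the compared groups alone, a replicate block and leaving out single arrays. Promoters came from RefSeq tables of GRCm38.p6.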

Additional observations from a re-analysis of the deposited data

Results flagged for a closer look

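Of 88 groups of 4 islet arrays (44 genes in P12.5 and in NP islets), 11 held an array whose gap to the nearest other was above Dixon's 95% critical value, taken as a share of the group's range. The 1 in 20 rate of that critical value is for unrounded values and does not hold for ties of values rounded to 1 decimal. In all 11 groups the other arrays were tied, so the gap was the whole range, and the gaps were between 0.1 and 0.3. In P12.5 islets these were Gpc3 on array 3 (5.2, nearest 5.1), Mfap5 on array 2 (5.1, nearest 5.2), Timp1 on array 2 (5.2, nearest 5.3) and Pdgfrb on array 4 (6.9, nearest 7.1). In NP islets they were Efemp1 on array 4 (5.0, nearest 4.8), Mfap5 on array 3 (5.4, nearest 5.2), Loxl1 on array 2 (6.4, nearest 6.1), Pi16 on array 4 (5.5, nearest 5.4), Timp1 on array 2 (5.5, nearest 5.4), Tagln on array 1 (5.9, nearest 6.0) and Fmo2 on array 2 (5.9, nearest 5.8). Graft groups hold 3 arrays each and were not examined this way.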

How the results depend on the processing

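The number of genes called in grafts against islets was 29 to 34 in female P12.5, 29 to 34 in female NP, 32 to 38 in male P12.5 and 33 to 37 in male NP under the 8 alternatives, and 29 to 32, 29 to 33, 28 to 38 and 31 to 35 with single arrays left out. Over P12.5 against NP grafts of both donor sexes the count of 1 became 2 with dim probe sets removed or with gene means, 0 with the replicate block, and 0 to 2 with single arrays left out. The counts of the other comparisons did not move. Deviations of same-numbered arrays correlated at -0.242 to 0.375. Correlations of differently numbered arrays are not given, so these values cannot decide whether replicate numbers pair the samples. The replicate block gave 29, 29, 33 and 33 called genes in female P12.5, female NP, male P12.5 and male NP grafts against islets. The calls of named genes lost under the block were Pdgfrb in female NP grafts (0.76, adjusted p = 0.103), Car3 in female and male P12.5 grafts (adjusted p = 0.0527 and 0.0547) and Fbln2 at P12.5 against NP (adjusted p = 0.0584). Of 68 called changes of named genes, 62 held in all alternatives run; the others were Pdgfrb in female NP and male P12.5 grafts, Car3 in both P12.5 comparisons, Myh11 and Fbln2. Differences near 0 changed sign: Msln in male P12.5 grafts was -0.025 with array medians subtracted, -0.062 with the replicate block and -0.12 to 0.23 with single arrays left out. With single arrays left out, Msln in female P12.5 grafts was -0.025 (without their first array) to 0.275, and Myh11 in male P12.5 grafts -0.225 to 0.075. The causes were not tested.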
